A study of Mus musculus with 6 samples.

Results

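The cytochrome P450 genes of the Cyp1, Cyp2 and Cyp3 families were followed in 6 liver libraries of insulin-resistant (IR) mice, 3 after insulin and 3 after its carrier. The members were all genes of the count table named Cyp1, Cyp2 or Cyp3 followed by a letter, without the 23 rows marked -ps (pseudogenes). This gave 61 genes of 54532 in all, and each of the 61 is protein-coding in the annotation. The mice were male C57BL/6J with no altered gene, fed a high-fat diet for 6 weeks from 8 weeks of age. After a 16 h fast they received an intraperitoneal dose of insulin (0.75 units/kg; the group IR insulin) or bovine serum albumin (BSA; the group IR vehicle), and livers were removed 6 h later. All 6 mice shared the diet and the fast. The labels number 3 replicates per group, and the study describes these as independent mice, so the spread between replicates is a spread between animals.

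P450 enzymes of these families sit in the membrane of the endoplasmic reticulum, where each carries a heme and takes electrons from the reductase encoded by Por. They oxidise drugs, plant toxins, steroids, bile acids and polyunsaturated fatty acids, and the hepatocytes around the central vein hold most of them. Their transcription follows receptors that sense foreign compounds: AHR for Cyp1 genes, CAR (Nr1i3) for Cyp2b genes and PXR (Nr1i2) for Cyp3a genes. Inflammation and the sex-dependent pattern of growth hormone are also known to set their levels.

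Libraries held 18449986 to 21827619 read counts. Vehicle replicates 2 and 3 each stood apart over all genes, on the first (60% of the variance) and second (23.4%) principal component, so results below are given by library. Liver identity was clear: all 8 hepatocyte markers were detected in all 6 livers, with the summed level of the list at 66010 to 175700 CPM (counts scaled to a common library size of 1e6 reads with TMM factors). The 4 Y-linked markers were present in each liver and Xist had at most 1 read, the pattern of male mice. The 5 pancreas markers summed to at most 0.811 CPM. In whole liver, fewer cells of a type and less RNA per cell cannot be told apart.

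Of the 61 genes, 37 passed the filter on low counts and were tested, and 24 were not. No read was counted in any library for 10 genes: Cyp2b23, Cyp2c65, Cyp2c66, Cyp2j7, Cyp2j11, Cyp2j12, Cyp2j13, Cyp2w1, Cyp3a41a and Cyp3a41b. A count of 0 allows a level of up to 0.137 to 0.163 CPM in these libraries (3 counts; counting error only). This limit does not hold for Cyp3a41a and Cyp3a41b, since 95.27% and 90.9% of their 75-base windows occur in another gene and the treatment of reads with several matches is not known. The other 14 held between them at most 141 reads per gene over the 6 libraries.

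The sequences before the start site are shown for 6 of the 7 genes on which the comparison below turns, because 4 of the 6 form near-identical pairs and Cyp3a11 and Cyp3a13 do not. They are the 250 bases before the RefSeq start (GRCm38.p6, the build of the count table), written 5′ to 3′ on the strand of the gene. Capitals mark AGGTCA, the half-site that nuclear receptors bind, and CAAAGTCCA, a site of the hepatocyte factor HNF4A, on either strand.
Cyp3a11 (chr5:145879855-145880104, minus strand): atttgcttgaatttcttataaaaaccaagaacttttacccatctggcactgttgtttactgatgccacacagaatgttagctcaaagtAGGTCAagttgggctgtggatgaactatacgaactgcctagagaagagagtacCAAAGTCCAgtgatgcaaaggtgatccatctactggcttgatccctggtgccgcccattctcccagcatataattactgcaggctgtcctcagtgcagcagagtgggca
Cyp3a13 (chr5:137921620-137921869, minus strand): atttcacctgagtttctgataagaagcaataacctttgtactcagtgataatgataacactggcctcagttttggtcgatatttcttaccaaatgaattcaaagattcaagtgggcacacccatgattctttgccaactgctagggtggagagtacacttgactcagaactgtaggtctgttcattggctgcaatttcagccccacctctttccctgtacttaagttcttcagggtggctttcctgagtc
Cyp3a25 (chr5:146009619-146009868, minus strand): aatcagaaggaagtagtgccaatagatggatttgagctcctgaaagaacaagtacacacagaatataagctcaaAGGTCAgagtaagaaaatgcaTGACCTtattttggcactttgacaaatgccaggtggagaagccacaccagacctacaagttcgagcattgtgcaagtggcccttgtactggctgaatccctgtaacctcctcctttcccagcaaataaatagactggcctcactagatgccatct
Cyp3a59 (chr5:146079008-146079257, plus strand): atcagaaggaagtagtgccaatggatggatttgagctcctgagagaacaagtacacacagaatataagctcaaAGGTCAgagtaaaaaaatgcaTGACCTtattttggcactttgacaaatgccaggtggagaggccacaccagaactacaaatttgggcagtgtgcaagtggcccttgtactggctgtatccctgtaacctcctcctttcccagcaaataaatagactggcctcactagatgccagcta
Cyp2c40 (chr19:39812815-39813064, minus strand): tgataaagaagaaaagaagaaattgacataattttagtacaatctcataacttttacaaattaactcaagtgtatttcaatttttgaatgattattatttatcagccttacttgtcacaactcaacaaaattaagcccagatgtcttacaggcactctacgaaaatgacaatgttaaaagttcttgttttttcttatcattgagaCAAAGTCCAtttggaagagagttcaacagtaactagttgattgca
Cyp2c68 (chr19:39741102-39741351, minus strand): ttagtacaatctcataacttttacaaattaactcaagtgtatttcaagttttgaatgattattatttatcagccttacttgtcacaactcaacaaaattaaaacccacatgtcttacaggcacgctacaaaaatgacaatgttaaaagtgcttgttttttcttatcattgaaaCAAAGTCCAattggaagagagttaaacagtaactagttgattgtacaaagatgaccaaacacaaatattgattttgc
The RefSeq start lies 110 bases inside the GENCODE gene in Cyp3a11 and 47 bases outside it in Cyp2c68. Cyp3a25 and Cyp3a59, which lie head to head on opposite strands, were 95.6% identical over 249 aligned bases, and each held AGGTCA at 2 places. Cyp2c40 and Cyp2c68 were 95.4% identical over 217 aligned bases, with CAAAGTCCA in both. Cyp3a11 held 1 copy of each motif and was 65.7% identical to Cyp3a25, and Cyp3a13, which lies apart from the other Cyp3a genes, held neither. A promoter entry was found for 53 of the 61 genes. Searched on both strands, CAAAGTCCA was in 10 of these 53 (18.9%) and in 0.384% of all 32851 promoter entries. The 10 were all in the Cyp2c and Cyp3a subfamilies, whose promoters are related by descent and so are not independent. AGGTCA was in 14 of the 53 (26.4%), against 14% of all entries. The core of the xenobiotic response element that AHR binds, GCGTG, was in 9 (17%), against 28.2%. Besides Cyp1a1 and Cyp1b1, these 9 were Cyp2 genes such as Cyp2b10, Cyp2j9 and Cyp2c68. The copy in Cyp2c68 is not in capitals above. The motifs were chosen with the sequences in view, and a match is a description, not a site. No copy of the longer motif overlapped a copy of the shorter one in the sequences shown.

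Cyp2e1, which oxidises ethanol, acetone and paracetamol, was by far the most abundant member. Per kilobase of its longest transcript it reached a mean of 5348 CPM (lowest 4009, highest 7710, 6 livers), and it made up 38.4 to 52.2% of the summed CPM of all members. Cyp2d9, a testosterone hydroxylase typical of male liver, followed at 923.7 CPM per kilobase (708.4 to 1091). Their ranges did not overlap. Cyp3a11, Cyp2d10, Cyp2d26 and Cyp2c50 came next at means of 557.7, 518.8, 475 and 363.9 CPM per kilobase, and each overlapped its neighbour. Cyp3a11, the main drug-oxidising CYP3A enzyme of mouse liver, had the widest range of these, from 169.4 to 1814 CPM per kilobase. Together the 61 genes took 1.65 to 1.89% of all reads in the insulin livers. In the vehicle livers they took 1.81% (replicate 1), 2.31% (replicate 2) and 2.63% (replicate 3), with exact Clopper-Pearson 95% intervals of less than 0.01 percentage points to either side, which cover only counting error.

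**Figure D1:**
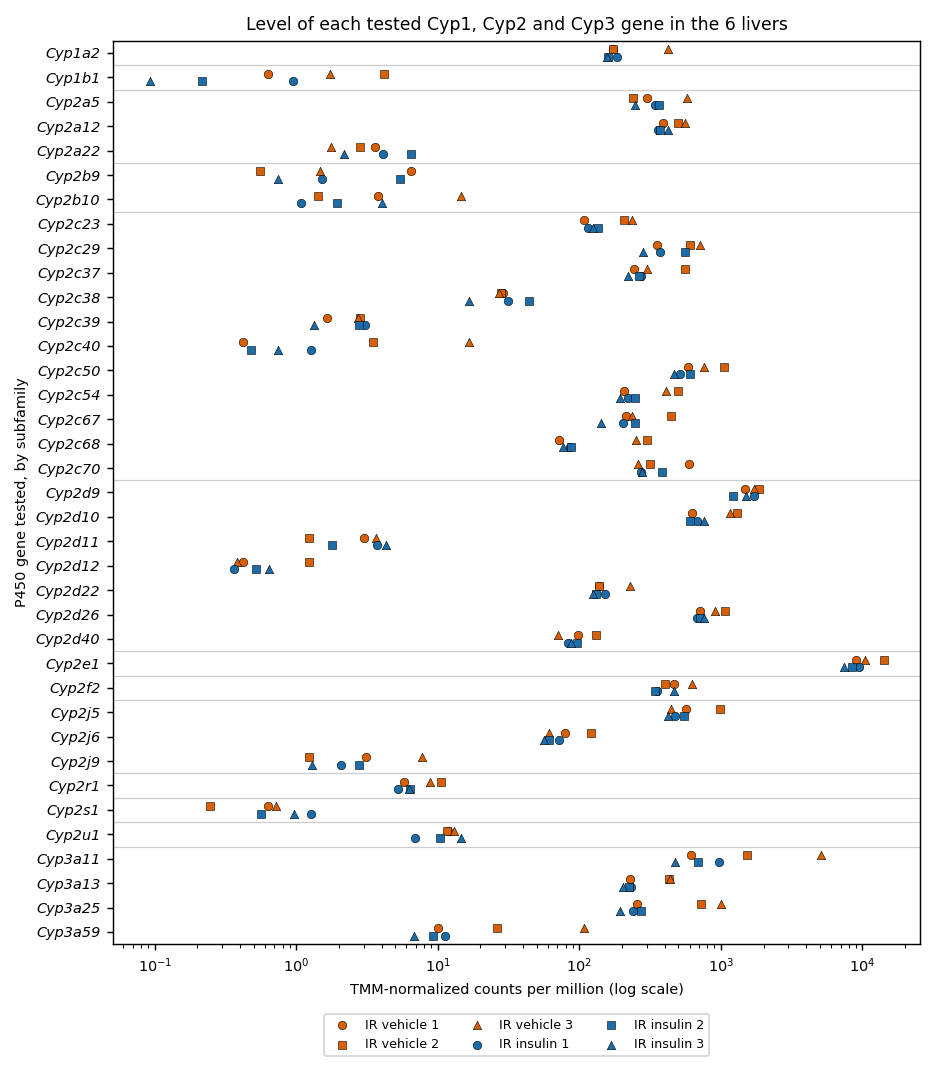
Level of the 37 tested P450 genes in each of the 6 livers (x axis: TMM-normalised CPM, log scale; rows: genes by subfamily; orange: IR vehicle, blue: IR insulin; circle, square and triangle: replicates 1, 2 and 3). Cyp2e1 lies to the right of all others, and in the Cyp3a rows the orange triangle and square (vehicle replicates 3 and 2) stand to the right of the other 4 livers.

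With insulin, 33 of the 37 tested genes had a lower mean level than with vehicle by log2 fold change, against 51.4% of all 13377 genes tested. The median log2 fold change was −0.47, and over all genes it was −0.017. None passed an adjusted p of 0.05 (quasi-likelihood test of edgeR, adjusted by Benjamini and Hochberg over all genes tested; adjusted p 0.852 to 0.9995), and DESeq2 called none either. By the criteria of the study (log2 fold change of 0.35 or more in size, together with p under 0.05 before adjustment), 7 of the 37 were lower with insulin, and these 7 were also all the members at an unadjusted p under 0.05, where 2.86% of all genes were. Over all genes 1.86% were lower by these criteria. No member was higher, against 1% of all genes. By DESeq2 the lower members numbered 8 (2.69% of all genes), the same 7 and Cyp2c54. The 7 were 4 Cyp3a genes, 2 Cyp2c genes and Cyp1b1. The values of the groups overlapped for all 37, while 12.3% of all genes had groups without overlap (6.04% lower and 6.25% higher with insulin).

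**Figure D2:**
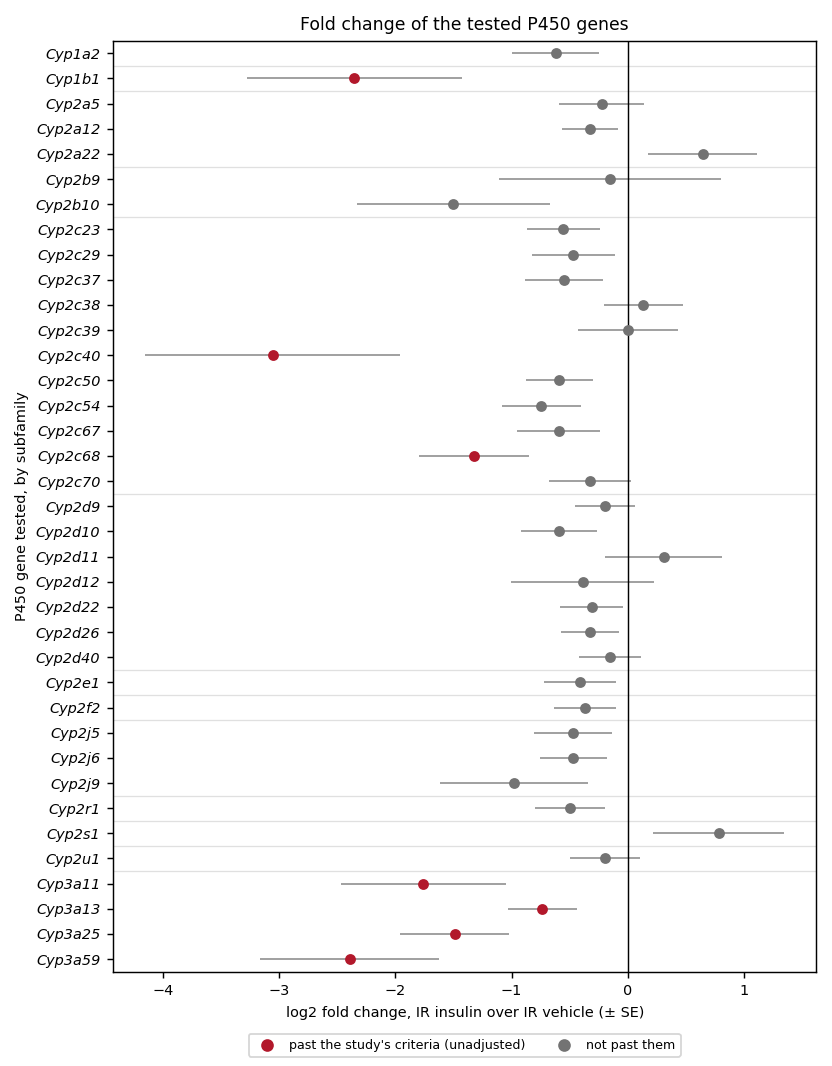
Log2 fold change of each tested P450 gene, IR insulin over IR vehicle, with its standard error (x axis; rows: genes by subfamily; red: past the criteria of the study, grey: not past them). Of the 37 genes, 33 lie left of 0, and the 4 Cyp3a genes are all red.

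Vehicle replicate 1 often lay with the insulin livers. Its value was within the range of the insulin livers for 27 of the 37 genes (52.1% of all genes), whereas vehicle replicates 2 and 3 were both above all other livers for 18 (13% of all genes). The highest liver was vehicle replicate 2 for 15 genes and vehicle replicate 3 for 14, where 35.8% and 23.4% of all genes had their highest value. It was vehicle replicate 1 for 2 genes (6.44% of all genes) and an insulin liver for 6. Over all genes, insulin replicates 1, 2 and 3 were highest for 11.6%, 7.62% and 15.2%. An insulin liver was lowest for 26 of the 37, against 31.6% of all genes. Without vehicle replicate 1, the groups did not overlap for 19 of 39 tested members (30.5% of all genes), each lower with insulin. On leaving out any other single liver this held for 2 to 7 members, against 18% to 31% of all genes.

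Acute phase genes divided the 6 livers in the same way. The summed level of 7 such genes (Saa1, Saa2, Saa3, Orm1, Orm2, Lcn2 and Hp), which the liver makes in inflammation, reached 24840 CPM in vehicle replicate 1, against 23640 to 30010 CPM with insulin. It was 9392 and 6871 CPM in vehicle replicates 2 and 3. All 7 were detected in all 6 livers. Saa1 was at 252 and 217 CPM in those 2 livers, at 4370 CPM in vehicle replicate 1 and at 4570 to 6803 CPM with insulin. The groups did not overlap for Saa1 and Saa2, which were higher with insulin (6.25% of all genes). All 7 genes had a positive log2 fold change (median 1.275), and none met the criteria of the study. Their part in the P450 values was not tested.

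**Figure D3:**
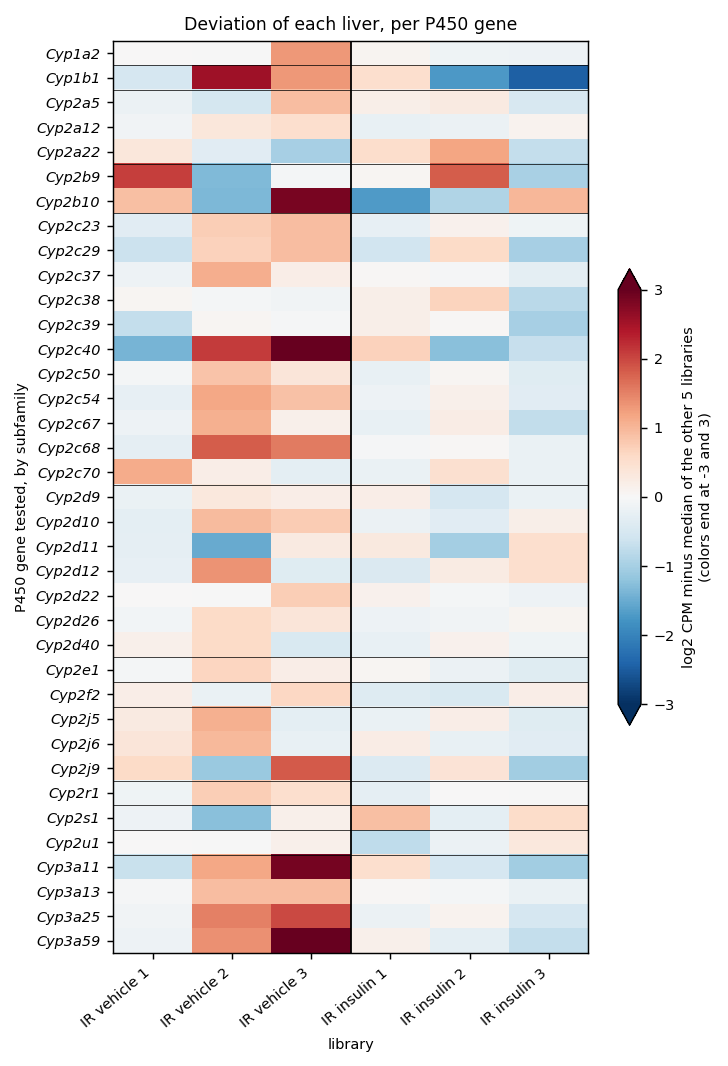
Deviation of each liver from the median of the other 5, per tested P450 gene (colour: log2 CPM difference, red higher, blue lower, ending at −3 and 3; columns: libraries, vehicle left of the line). The columns of vehicle replicates 2 and 3 hold 11 and 9 genes more than 1 above the others, and vehicle replicate 1 holds 2. Over all genes the shares were 11.8%, 4.75% and 1.08% in vehicle replicates 2, 3 and 1.

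The Cyp3a subfamily, which metabolises steroids and a large share of drugs, had the lowest median of the subfamilies with 2 or more tested genes, although under voom with sample quality weights that of Cyp2b was lower (−1.14 against −0.55). Its 4 tested members were all lower with insulin by the criteria of the study, at a median log2 fold change of −1.63, or −0.79 without vehicle replicate 3. In each, vehicle replicates 3 and 2 were above the other 4 livers and vehicle replicate 1 lay among the insulin livers. Summed over the 9 members, Cyp3a reached 1106, 2723 and 6629 CPM in vehicle replicates 1, 2 and 3 and 1457, 1195 and 875.9 CPM in insulin replicates 1, 2 and 3. The subfamily thus made up 24.5% of all member CPM in vehicle replicate 3 and 5.82 to 9.78% in the other 5 livers.

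Cyp3a11 (chromosome 5, 145854426 to 145879964, minus strand) was at 613.8, 1540 and 5084 CPM in the vehicle livers and at 972.3, 690.2 and 474.8 CPM in the insulin livers. Vehicle replicate 3 was 2.88 above the median of the other 5 livers on the log2 scale, and vehicle replicate 2 was 1.16 above. Insulin over vehicle was −1.76 ± 0.71 on the log2 scale (SE, edgeR; unadjusted p 0.0380). Leaving out vehicle replicate 3 moved it to −0.60 (unadjusted p 0.231), and correcting for GC content to −1.62 (unadjusted p 0.0775). None of the 75-base windows of its longest transcript occurs in another gene, although 1.63% of those of Cyp3a16 occur in a transcript of Cyp3a11.

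Cyp3a25 (chromosome 5, 145977194 to 146009618, minus strand) was at 254.6, 723.5 and 1001 CPM with vehicle and at 240.0, 271.8 and 192.6 CPM in the insulin livers. It had the smallest unadjusted p of all members, 0.0130, at a log2 value of −1.49 ± 0.47 (SE, edgeR). That p stayed under 0.05 without each vehicle liver in turn (0.000441 to 0.0420) and was 0.0529 without insulin replicate 3. Its neighbour Cyp3a59 (chromosome 5, 146079257 to 146113287, plus strand) was rarer, at a mean of 14.28 CPM per kilobase against 223.6 for Cyp3a25, and showed the same order of vehicle livers, 10.0, 26.2 and 107.1 CPM, against 6.78 to 11.3 CPM with insulin. For Cyp3a59 the log2 fold change was −2.39 ± 0.77 (SE; unadjusted p 0.0146), or −0.99 (unadjusted p 0.0542) once vehicle replicate 3 was left out. Both genes share 11.21% of the 75-base windows of Cyp3a25, so a part of the reads of Cyp3a59 may belong to Cyp3a25.

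Cyp3a13 (chromosome 5, 137892932 to 137921619, minus strand), which is also known from the intestine, was the least variable of the 4. Its vehicle values were 227.4, 433.1 and 435.0 CPM and its insulin values 232.7, 223.7 and 201.8 CPM. Here vehicle replicates 2 and 3 were nearly equal, and replicate 1 was again among the insulin livers. Its log2 fold change of −0.74 ± 0.30 (SE; unadjusted p 0.0392) passed on leaving out vehicle replicate 1 and missed the threshold on leaving out any other liver (unadjusted p 0.0674 to 0.122). The other 5 members of the subfamily were close to absent. Cyp3a16, a gene of fetal and female liver, had 32 reads in vehicle replicate 3, 7 in insulin replicate 1 and 0 in the other 4 livers.

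**Figure D4:**
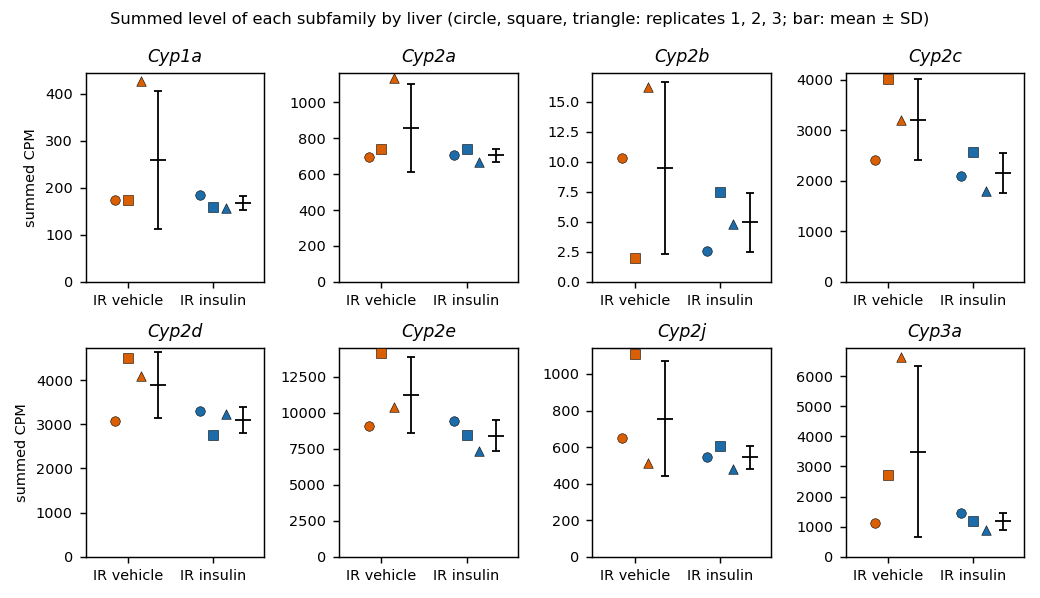
Summed CPM of 8 P450 subfamilies by liver (y axes start at 0; orange: IR vehicle, blue: IR insulin; circle, square and triangle: replicates 1, 2 and 3; bars: mean ± SD of 3). Cyp3a spans 1106 to 6629 CPM in the vehicle livers and 875.9 to 1457 CPM in the insulin livers, while in each panel shown the insulin livers lie closer together than the vehicle livers.

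The Cyp2c subfamily, enzymes that oxidise drugs and turn arachidonic and linoleic acid into epoxides and hydroxides, held 11 tested members, 10 of them lower with insulin, at a median log2 fold change of −0.55, or −0.21 with a GC offset and −0.14 with voom and sample quality weights. Its summed level was 2409, 4015 and 3211 CPM in vehicle replicates 1 to 3 and 1800 to 2572 CPM with insulin, so the groups overlapped. Here vehicle replicate 2 was the highest liver for 5 members and vehicle replicate 3 for 3. The fatty acid epoxygenases Cyp2c50, Cyp2c54 and Cyp2c37 had log2 fold changes of −0.59 ± 0.29 (SE), −0.74 ± 0.34 and −0.55 ± 0.34, with unadjusted p values of 0.0763, 0.0598 and 0.143 (edgeR). In that order the values were −0.33, −0.47 and −0.11 without vehicle replicate 2, and −0.165, −0.43 and −0.21 with a GC offset. Without vehicle replicate 1, Cyp2c50 (unadjusted p 0.0287) and Cyp2c54 (0.00479) met the criteria. Cyp2c54 was at 205.9, 493.5 and 408.4 CPM with vehicle and at 220.9, 245.7 and 194.8 CPM with insulin, again with vehicle replicates 2 and 3 above the other 4 livers. Cyp2c29, known for drug and arachidonic acid oxidation, and Cyp2c23, an arachidonic acid epoxygenase also called Cyp2c44, had values of −0.47 ± 0.36 and −0.55 ± 0.31.

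Cyp2c68 (chromosome 19, 39688834 to 39741054, minus strand) met the criteria. Its vehicle values were 72.3, 300.0 and 252.3 CPM and its insulin values 85.7, 87.3 and 76.1 CPM, or −1.33 ± 0.47 as log2 fold change (SE; unadjusted p 0.0230). It passed on leaving out vehicle replicate 1 and missed the threshold on leaving out any 1 of the other 5 livers (unadjusted p 0.0541 to 0.0724). Cyp2c40 (chromosome 19, 39767071 to 39812814, minus strand) was much rarer, with 8, 57 and 350 reads in the vehicle livers and 28, 11 and 16 in the insulin livers. Its log2 fold change of −3.06 ± 1.10 (SE; unadjusted p 0.0240) became −1.23 (unadjusted p 0.188) without vehicle replicate 3. Both counts are uncertain, since 57.14% of the 75-base windows of Cyp2c40 and 28.48% of those of Cyp2c68 occur in another gene. Cyp2c69, the neighbour that shares most with Cyp2c40, was not tested and had 119 reads in vehicle replicate 3 and 0 to 11 elsewhere.

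Cyp2c70, which makes the muricholic acids that set mouse bile apart, went its own way among the abundant members. Vehicle replicate 1 was its highest liver at 594.4 CPM, against 315.7 and 257.6 CPM in vehicle replicates 2 and 3 and 274.3 to 383.6 CPM with insulin. Insulin over vehicle was −0.32 ± 0.35 (log2, SE; unadjusted p 0.388), which turned to 0.12 without vehicle replicate 1. The livers that were high for Cyp3a were thus not high for this gene.

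Cyp1 genes answer to AHR, the receptor for dioxins and plant indoles. Cyp1a2, which oxidises caffeine, reached 423.5 CPM in vehicle replicate 3, and the other 5 livers were between 157.0 and 184.1 CPM. A single liver thus stood out. Its log2 fold change was −0.62 ± 0.38 (SE; unadjusted p 0.139), and −0.057 without that liver, but −0.835 (unadjusted p 0.0442) without vehicle replicate 2. Cyp1a1, which is nearly silent in liver without a ligand, had 91 reads in vehicle replicate 3 and 1 to 9 in the others, and was not tested. Cyp1b1 (chromosome 17, 79701537 to 79715061, minus strand), which is known mainly from cells other than hepatocytes, met the criteria (log2 fold change −2.35 ± 0.93, SE; unadjusted p 0.0349). It rested on few reads, 12, 68 and 36 with vehicle and 21, 5 and 2 with insulin, and its highest liver was vehicle replicate 2. Without that liver the unadjusted p was 0.137. The summed level of 5 stellate cell markers, all detected, was 155.5 to 236.1 CPM with vehicle and 124.7 to 208.1 CPM with insulin. It was highest in vehicle replicate 2, where Dcn held most of it (166.2 CPM). The markers did not peak together. Dcn and Lrat were highest in vehicle replicate 2, Col1a1 and Col3a1 in vehicle replicate 3, and Reln in insulin replicate 1. Of 4 erythroid genes, 3 were lower with insulin by the criteria, against 1.86% of all genes. The sum of the 4 was 611.5, 1534 and 401.4 CPM with vehicle and 304.3 to 466.5 CPM with insulin. The part of these cells in the Cyp1b1 values was not tested.

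Cyp2b10, the classical target of CAR and of phenobarbital, was highest in vehicle replicate 3 as well. It had 308 reads there (14.7 CPM), 71 and 23 in vehicle replicates 1 and 2, and 24, 45 and 87 in the insulin livers. Its log2 value of −1.50 ± 0.83 (SE; unadjusted p 0.109) became −0.15 without vehicle replicate 3 and −1.97 (unadjusted p 0.0212) without vehicle replicate 2. Cyp2b9, a gene of female liver, followed no group. It was at 6.50 and 5.41 CPM in vehicle replicate 1 and insulin replicate 2 and at 0.553 to 1.53 CPM in the other 4, with a log2 fold change of −0.15 ± 0.95 (unadjusted p 0.877, edgeR) that ran from −1.32 to 1.32 with single libraries left out. Of 7 genes known to be higher in female liver, Cyp2b9 was the one that passed the filter. Cyp2b13 and Cyp3a44 had at most 3 reads per library, and Cyp2a4, a testosterone hydroxylase, had 42 in vehicle replicate 3 and 0 to 11 elsewhere.

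The Cyp2a and Cyp2d subfamilies differed less. Cyp2a5, which oxidises nicotine and coumarin, reached 574.8 CPM in vehicle replicate 3 against 238.3 to 364.7 CPM elsewhere, and its log2 fold change was −0.23 ± 0.37 (SE; unadjusted p 0.552), or 0.23 without vehicle replicate 3. It shares 18% of its 75-base windows with Cyp2a4, so a part of the few Cyp2a4 reads may come from it. Cyp2a22 was 1 of the 4 members with a positive value, 0.64 ± 0.47 (unadjusted p 0.209), from 1.76 to 3.60 CPM with vehicle and 2.17 to 6.49 CPM with insulin. Of the 7 tested Cyp2d genes 6 were lower, at a subfamily median of −0.31. Cyp2d9 was at 1489, 1868 and 1711 CPM with vehicle and at 1709, 1213 and 1498 CPM with insulin (−0.20 ± 0.26, unadjusted p 0.471), which is within the spread of the libraries. Cyp2d10 had a value of −0.59 ± 0.32 (unadjusted p 0.105), which met the criteria without vehicle replicate 1 (−0.85, unadjusted p 0.0127) and with a GC offset (−0.87, unadjusted p 0.0493). Cyp2d22 had a value of −0.31 ± 0.27 (unadjusted p 0.285), and −0.024 without vehicle replicate 3. The low-abundance Cyp2d11, at 1.23 to 4.34 CPM, had a positive value of 0.31 ± 0.50 (unadjusted p 0.558), which turned to −0.026 without vehicle replicate 2. Cyp2d10 and Cyp2d11 share sequence, with 18.14% of the windows of Cyp2d11 found in Cyp2d10, so a part of the reads of Cyp2d11 may belong to Cyp2d10.

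Members typical of the zone around the central vein (Cyp1a2, Cyp2a5, Cyp2c29, Cyp2c37, Cyp2c50, Cyp2c54 and Cyp2e1) were lower with insulin in 7 of 7, at a median log2 fold change of −0.55. None met the criteria. They are part of the 37 tested members, of which 33 were lower (median −0.47), against 51.4% of all genes, so the count does not set this zone apart. Cyp2e1 was at 9051, 14132 and 10407 CPM in the vehicle livers and at 9453, 8430 and 7349 CPM in the insulin livers (−0.41 ± 0.31, SE; unadjusted p 0.215). Vehicle replicate 2 was high and vehicle replicate 1 lay within the insulin range. Cyp2f2, which activates naphthalene and is typical of the zone around the portal vein, had a value of the same size, −0.37 ± 0.27 (unadjusted p 0.205). Zone markers that are not P450 genes were read beside these. Of 7 pericentral markers, all tested, 3 had a positive and 4 a negative log2 fold change (median −0.24), and their sum was 2330 to 4939 CPM with vehicle and 3013 to 3505 CPM with insulin. All 6 periportal markers had a negative value (median −0.79), with a sum of 9487 CPM in vehicle replicate 3 against 2234 to 3611 CPM elsewhere. No marker of either list met the criteria, and their part in the P450 values was not tested.

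Of the 3 tested Cyp2j genes, which include epoxygenases, Cyp2j5 and Cyp2j6 were highest in vehicle replicate 2, while Cyp2j9 was highest in vehicle replicate 3 (7.73 CPM) and lowest in vehicle replicate 2 (1.23 CPM). Cyp2j5 was at 566.2, 985.7 and 442.7 CPM with vehicle and at 471.1, 544.4 and 422.5 CPM with insulin, and vehicle replicate 3 thus lay among the insulin livers. Its log2 fold change was −0.47 ± 0.34 (SE; unadjusted p 0.198), and −0.069 without vehicle replicate 2. Among genes with roles outside drug metabolism, Cyp2r1, which hydroxylates vitamin D, was at 5.22 to 10.6 CPM over the 6 livers (−0.50 ± 0.30, unadjusted p 0.134). Cyp2u1, a fatty acid hydroxylase, was at 6.93 to 14.5 CPM (−0.19 ± 0.30, unadjusted p 0.537), turning to 0.042 without insulin replicate 1. Cyp2s1, known from epithelia rather than liver, had the largest positive value of the members, 0.78 ± 0.56 (unadjusted p 0.203), on 4 to 28 reads per library. Single-gene subfamilies close to absent were Cyp2ab1, Cyp2t4 and Cyp2g1, the last with 18 reads in vehicle replicate 3 and 0 to 5 elsewhere. Of the 14 untested members with reads, vehicle replicate 3 was the highest liver for 9. It was highest for 23.4% of all genes tested, and the share over genes outside the filter was not computed. In that liver Cyp2b19 and Cyp3a44 had 1 read each and Cyp3a57 had 2, too few to rank the livers.

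Of 25 regulators and partners of these enzymes, 24 were tested, and 13 had a positive and 11 a negative log2 fold change, with a median of 0.01. By the criteria of the study 3 were lower with insulin (1.86% of all genes) and none was higher (1% of all genes). Ahr was at 19.1, 57.0 and 31.5 CPM with vehicle and at 12.2, 12.8 and 23.2 CPM with insulin, which gave −1.16 ± 0.44 (log2 fold change, SE; unadjusted p 0.0300, and 0.0101 to 0.0977 with 1 library left out). Tiparp, an AHR target that feeds back on the receptor, was at 6.03, 9.33 and 8.30 CPM with vehicle and at 4.91, 4.94 and 4.61 CPM with insulin, without overlap (−0.71 ± 0.27, unadjusted p 0.0318, 0.0169 to 0.0956 with 1 library left out, and 0.183 with a GC offset). Fmo5, a flavin monooxygenase, was at 851.9, 1038 and 911.9 CPM with vehicle and at 536.5, 643.6 and 696.3 CPM with insulin, also without overlap (−0.58 ± 0.24, unadjusted p 0.0437, 0.0422 to 0.193 with 1 library left out, and 0.156 with a GC offset). In Tiparp and Fmo5, vehicle replicate 1 was above all insulin livers.

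The receptors of the Cyp3a and Cyp2b genes did not meet the criteria. Nr1i2 (PXR) was at 70.5, 44.6 and 89.6 CPM with vehicle and at 66.0 to 73.7 CPM with insulin (0.012 ± 0.28, SE; unadjusted p 0.967). Nr1i3 (CAR) was at 13.8, 10.9 and 28.3 CPM with vehicle and at 17.5 to 34.7 CPM with insulin (0.49 ± 0.41, unadjusted p 0.275, and 0.0235 without vehicle replicate 3). Vehicle replicate 3, the liver with most Cyp3a11 and Cyp2b10, was the highest for Nr1i2, and insulin replicate 3 was for Nr1i3. The electron donor Por was at 511.0, 188.9 and 866.6 CPM with vehicle and at 521.7 to 734.8 CPM with insulin, lowest in vehicle replicate 2 and highest in vehicle replicate 3 (0.25 ± 0.49, unadjusted p 0.631). Alas1, the first enzyme of heme synthesis, and Hnf4a, a factor that many hepatocyte genes need, had values of 0.25 ± 0.49 and 0.17 ± 0.30 (unadjusted p 0.624 and 0.579). The direction of Nr1i2, Por, Alas1 and Hnf4a turned when single libraries were left out. The intervals of these values are wide, and a p above the threshold does not show that the groups were alike.

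**Figure D5:**
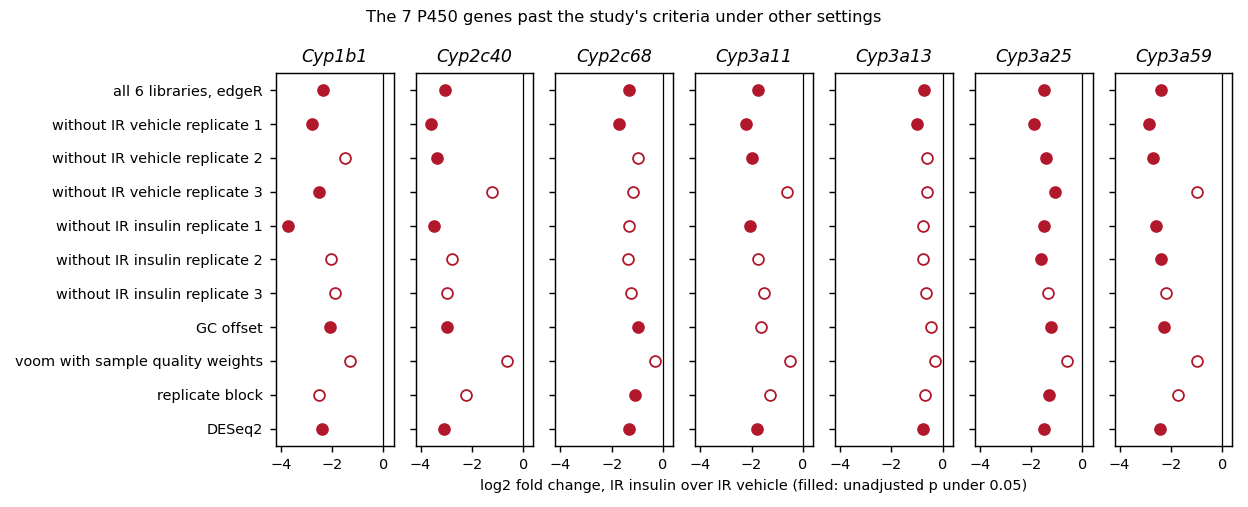
Log2 fold change of the 7 P450 genes past the criteria of the study, with all 6 libraries and under 10 other settings (x axis: IR insulin over IR vehicle; rows: setting; filled circles: unadjusted p under 0.05, open circles: not). All values lie left of 0, and the row without insulin replicate 3 and the row for voom with sample quality weights hold open circles only.

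The number of members lower by the criteria moved with single livers. Without vehicle replicate 1 it was 13 (5.33% of all genes lower, 4.48% higher), the first 7 with Cyp2c23, Cyp2c50, Cyp2c54, Cyp2c69, Cyp2d10 and Cyp2r1. Leaving out vehicle replicate 2 gave 7 (2.06% lower, 1.64% higher), where Cyp3a11, Cyp3a25, Cyp3a59 and Cyp2c40 were joined by Cyp1a2, Cyp2b10 and Cyp2j9. Leaving out vehicle replicate 3 gave 3 (4.86% lower, 1.66% higher), namely Cyp3a25, Cyp1b1 and Cyp2j6. On leaving out insulin replicate 1 there were 5 (0.492% lower, 0.235% higher), all of the first 7 but Cyp3a13 and Cyp2c68. On leaving out insulin replicate 2, Cyp3a25 and Cyp3a59 remained (0.505% lower, 0.541% higher), and on leaving out insulin replicate 3 none did (0.496% lower, 0.379% higher), with unadjusted p of the 7 from 0.0529 to 0.122. Groups without overlap were found for 19 of 39 members without vehicle replicate 1 (30.5% of all genes), each lower with insulin. Without vehicle replicates 2 and 3 they were found for 2 of 38 and 3 of 37, all lower (19% and 31% of all genes). Leaving out insulin replicates 1, 2 and 3 gave 6 of 39, 5 of 38 and 7 of 39 (18%, 19.8% and 19.2% of all genes). Of these members 6, 3 and 4 were lower with insulin. The 7 members lower by the criteria with all libraries were the same with RLE factors (2.06% lower, 0.942% higher) and upper-quartile factors (1.52% lower, 1.09% higher). DESeq2 had 1.11% of all genes higher. With a GC offset the number was 7 (1.95% lower, 1.11% higher; groups without overlap for 9.85%), of which 5 were among the first 7, the others being Cyp2d10 and Cyp2f2. Of 51 members tested with no filter, 12 were lower (1.94% lower, 1.28% higher). Under voom with sample quality weights Cyp2b10 alone was lower (0.785% lower, 0.807% higher), and with a replicate block Cyp3a25 and Cyp2c68 were (0.882% lower, 1.52% higher). In none of these fits was a member higher by the criteria or past an adjusted p of 0.05, and the smallest adjusted p of a member was 0.347, by edgeR without vehicle replicate 1.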

How the data were processed

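RNA sequencing libraries of 6 livers were compared, 3 per group, with groups and replicate numbers taken from the sample labels. The authors deposited whole-number read counts per gene, neither normalised nor pooled. Per the study's methods they used the NEBNext Ultra kit and an Illumina HiSeq and aligned with Bowtie 2 (2.2.3) to mm10. The counting program, annotation release and use of strand were not given in the sources used here, so counts of overlapping genes and close paralogs are uncertain.

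Here, genes were kept by filterByExpr (minimum count 10, minimum total 15), which left 13377, and tested with edgeR 4.0.16 (quasi-likelihood F test, TMM, R 4.3.3, no covariate), adjusted by Benjamini-Hochberg over all genes kept. The common biological coefficient of variation was 0.357. Standard errors came from the F statistic. Log2 CPM used a prior count of 2. Totals of 18449986 to 21827619 counts mean that the spread between replicates, not depth, limited precision for abundant genes. An exact permutation test of 3 against 3 cannot go below a two-sided p of 0.1 and was not used. The edgeR step was tested on simulated counts with a biological coefficient of variation of 0.1, below the 0.357 of these data. That test checks the code and does not show the power or error here.

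Gene identifiers matched by 99.9% to GENCODE M21 (build 38), the source of coordinates, length and GC content of the longest transcript. For each member, 75-base windows of that transcript were looked up in the transcripts of all other genes. Promoters came from RefSeq (GRCm38.p6), 250 bases before the start.

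Alternatives were RLE and upper-quartile factors, no filter, DESeq2 1.42.0 (the tool of the study), voom with sample quality weights (limma 3.58.1), leaving out each library, a replicate block, and a GC offset (loess, span 0.5, per library; 13367 genes). Named are the members past the study's criteria, the 3 with the smallest p in each direction, the most abundant member of each subfamily, and textbook members and regulators. Cyp2c69, Cyp3a16 and the genes listed without reads were named after their values were seen. Members and lists were chosen with earlier results of these data known.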

Additional observations from a re-analysis of the deposited data

How the results depend on the processing

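No member passed an adjusted p of 0.05 under any of the 13 alternatives, and none met the study's criteria in the upward direction. The replicate numbers did not pair the libraries: deviations of same-numbered libraries correlated at −0.039, 0.069 and 0.017. With the replicate block, 2 members met the criteria and 2 had an unadjusted p under 0.05 (Cyp3a25 and Cyp2c68). Libraries were left out 1 at a time. Members lower by the criteria, and members at an unadjusted p under 0.05, then numbered 0 to 13, members without overlap between groups 2 to 19, and genes past the criteria over all genes 99 to 1349, against 383 with all libraries. The median over all tested members ran from −0.71 to −0.39, and subfamily medians from −0.84 to −0.057 (Cyp1a), −0.41 to 0.23 (Cyp2a), −1.35 to −0.23 (Cyp2b), −0.78 to −0.40 (Cyp2c), −0.43 to −0.12 (Cyp2d), −0.67 to −0.16 (Cyp2j) and −2.04 to −0.79 (Cyp3a). With no filter on low counts, 51 members were tested and 12 met the criteria (12 at an unadjusted p under 0.05), 742 of all genes did, and the Cyp1a median was −1.40 because Cyp1a1 entered. With voom and sample quality weights the numbers were 1 (1 at an unadjusted p under 0.05) and 213, the median over members −0.18, that of Cyp2c −0.14, that of Cyp2d −0.10 and that of Cyp3a −0.55. With a GC offset, 2 members had groups without overlap (Cyp2d26 and Cyp2f2; 9.85% of all genes), and the median was −0.28 over members, −0.21 for Cyp2c and −0.14 for Cyp2j. RLE and upper-quartile factors left the 7 members as they were.

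Some directions turned. Nr1i2 was at −2.15e-05 by DESeq2, −0.057 with voom and −0.097 with a GC offset, and Cyp2d11 at −0.094 with voom. When single libraries were left out, log2 fold changes ran from −0.21 to 0.26 for Nr1i2, −0.026 to 0.62 for Cyp2d11, −0.46 to 0.23 for Cyp2a5, −1.32 to 1.32 for Cyp2b9, −0.55 to 0.12 for Cyp2c70, −0.47 to 0.042 for Cyp2u1, −0.0054 to 0.36 for Hnf4a, −0.15 to 0.82 for Por and −0.20 to 0.61 for Alas1. Except where a cause is named, the cause was not tested. Few reads limit Cyp1a1, Cyp1b1, Cyp2c40 and the untested members.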
